A study of Mus musculus with 41 samples.

Results

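Lung messenger RNA was compared between 7 mice that had inhaled nanosized titanium dioxide (nanoTiO2) and 6 control mice that had inhaled filtered air, on 13 of the 41 arrays of the series. The 13 arrays were chosen by tissue and molecule from their labels, with no use of measured values here. The study's methods describe more mice per group than these, and the paper states that outliers were removed after a cluster analysis of both channels. Whether lung arrays were dropped in that way before deposit is not stated, so an earlier choice by measured values is possible. Every spot other than controls was kept, which gave 43379 spots for 41174 probes. All mice were C57BL/6 females, of the C57BL/6BomTac substrain by the study's methods, that had been mated without becoming pregnant, and neither group carried a transgene or a second treatment. The exposed mice breathed 40 mg/m3 of UV-Titan L181, a surface-coated rutile nanoTiO2, for 1 h per day on 11 days, and the lungs of both groups were taken 5 days after the last exposure. Each array held the RNA of 1 mouse from random slices of the left lung, labelled with Cy5, against a universal mouse reference RNA pooled from cell lines, labelled with Cy3, without a dye swap. A log2 ratio in the following is the Cy5 lung signal over the Cy3 reference signal of the same spot, and a log2 difference is the mean ratio of the exposed minus that of the control mice. A probe was called where its adjusted p from limma was under 0.05.

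Inhaled insoluble particles that reach the alveoli are taken up by alveolar macrophages, which carry scavenger receptors and clear most of what is deposited. Epithelial cells and macrophages that meet particles can release chemokines, which draw monocytes, neutrophils and lymphocytes from the blood, and acute-phase proteins, which are best known from the liver but are also made in the lung. The airway epithelium adds a mucosal defence of its own, with secreted antibodies, iron-binding proteins and anion transporters that set the airway surface fluid.

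The arrays were of even quality, and a few of them carried transcripts of other tissues. The share of spots with a Cy5 signal well above background was 61.8% to 67.5% on exposed and 61.3% to 66.4% on control arrays. The tissue was lung by its markers: the surfactant gene Sftpc, the alveolar type 1 gene Ager, the club cell gene Scgb1a1, the ciliated cell gene Foxj1 and the endothelial gene Pecam1 were well above background on all 13 arrays, and none of the 15 alveolar type 2, 10 alveolar type 1, 13 club cell, 31 ciliated cell and 20 endothelial genes measured was called. The 26 hepatocyte genes, among them Alb for albumin, had a mean log2 ratio from 0.68 to 2.61 on exposed and from 0.50 to 1.1 on control arrays, and exposed mice 1, 13 and 19 stood highest at 2.61, 1.73 and 1.93. Heart muscle genes, among them Myh6, and fat cell genes, among them Adipoq, were lowest in control mice 27 and 29, whose heart muscle means were 0.31 and 0.98 against 1.39 to 2.61 on exposed arrays. The same 2 control mice had the lowest ciliated cell means, 1.64 and 1.55. No gene of the hepatocyte, heart muscle and fat cell lists was called, but their median log2 differences were 0.53, 0.36 and 0.36, against -0.0041 over all 41174 probes. Without exposed mice 1, 13 and 19 the hepatocyte median was 0.065, and without control mice 27 and 29 the heart muscle and fat cell medians were -0.14 and -0.20. A call that ended without exposed mice 1, 13 and 19, without control mice 27 and 29, or with slide as a block is named beside the gene or its list, and the part of other tissues in any result was not tested. The block was fixed, so exposed mice 20 and 23, on slide 4 with no control, do not enter its exposure difference.

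**Figure D1:**
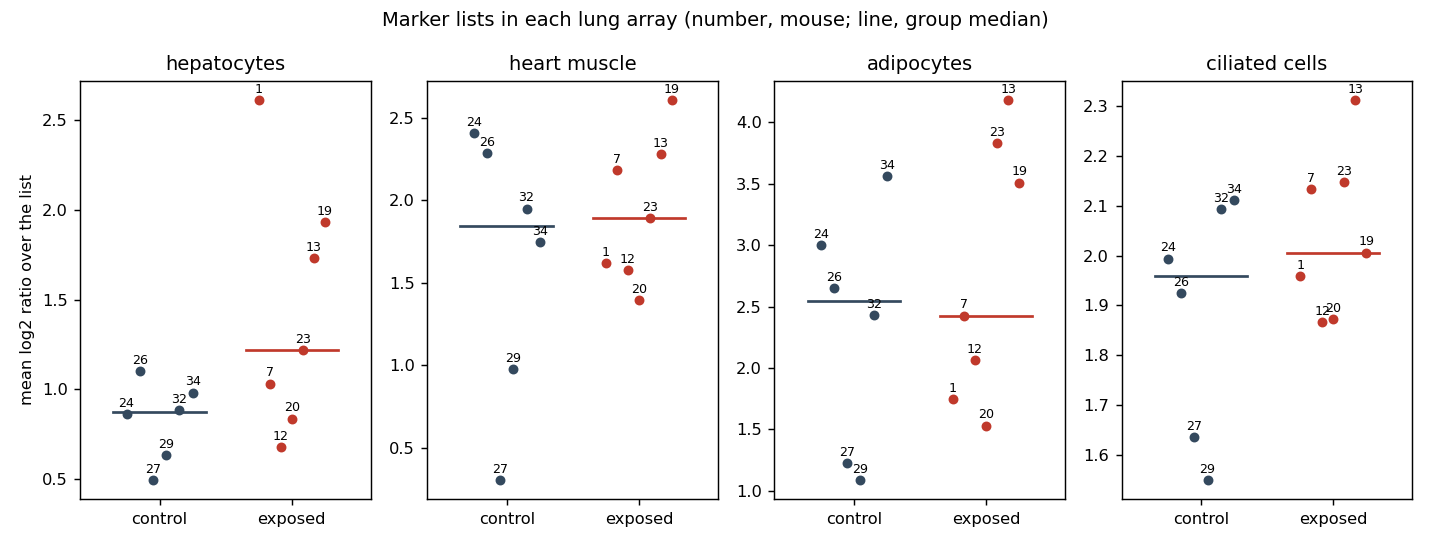
Mean log2 ratio (Cy5 lung over Cy3 reference, y axis) over the measured genes of 4 marker lists in each control and exposed mouse; each point is 1 mouse with its number, and the line is the group median. Exposed mice 1, 13 and 19 were the highest for hepatocyte genes (2.61, 1.73 and 1.93), and control mice 27 and 29 were the lowest for heart muscle, fat cell and ciliated cell genes.

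Exposure was accompanied by a short list of changed genes, nearly all of them higher. Of 41174 probes, 71 were called (0.172%), 61 of them higher (0.148%) and 10 lower (0.0243%) in exposed lungs, and they belong to 67 gene symbols. A total of 48 of the 71 kept their call with each array left out in turn, and the genes on which single arrays weigh are given with them. Of the called genes, 21 had several probes, 18 of these had a probe that was not called, and 21 of the 22 uncalled probes had the same direction. Of the 71 probes, 43 were more than 1.5-fold higher and 2 more than 1.5-fold lower. Without adjustment, 3473 probes had a p under 0.05. Among called genes the largest rise was that of Saa3, followed by Ly6f, Slc26a4, Lcn2, Noxo1 and Vnn1, and the largest fall was that of Cpne5. For 67 of the 71 called probes the groups did not overlap, whereas over all probes 121 (0.294%) had every exposed mouse above every control mouse and 72 (0.175%) had every exposed mouse below every control mouse. These 71 probes had been chosen by the same difference, so that the lack of overlap describes them and tests nothing further. In whole lung RNA a change in a transcript's level per cell and a change in the number of cells that carry it cannot be told apart.

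**Figure D2:**
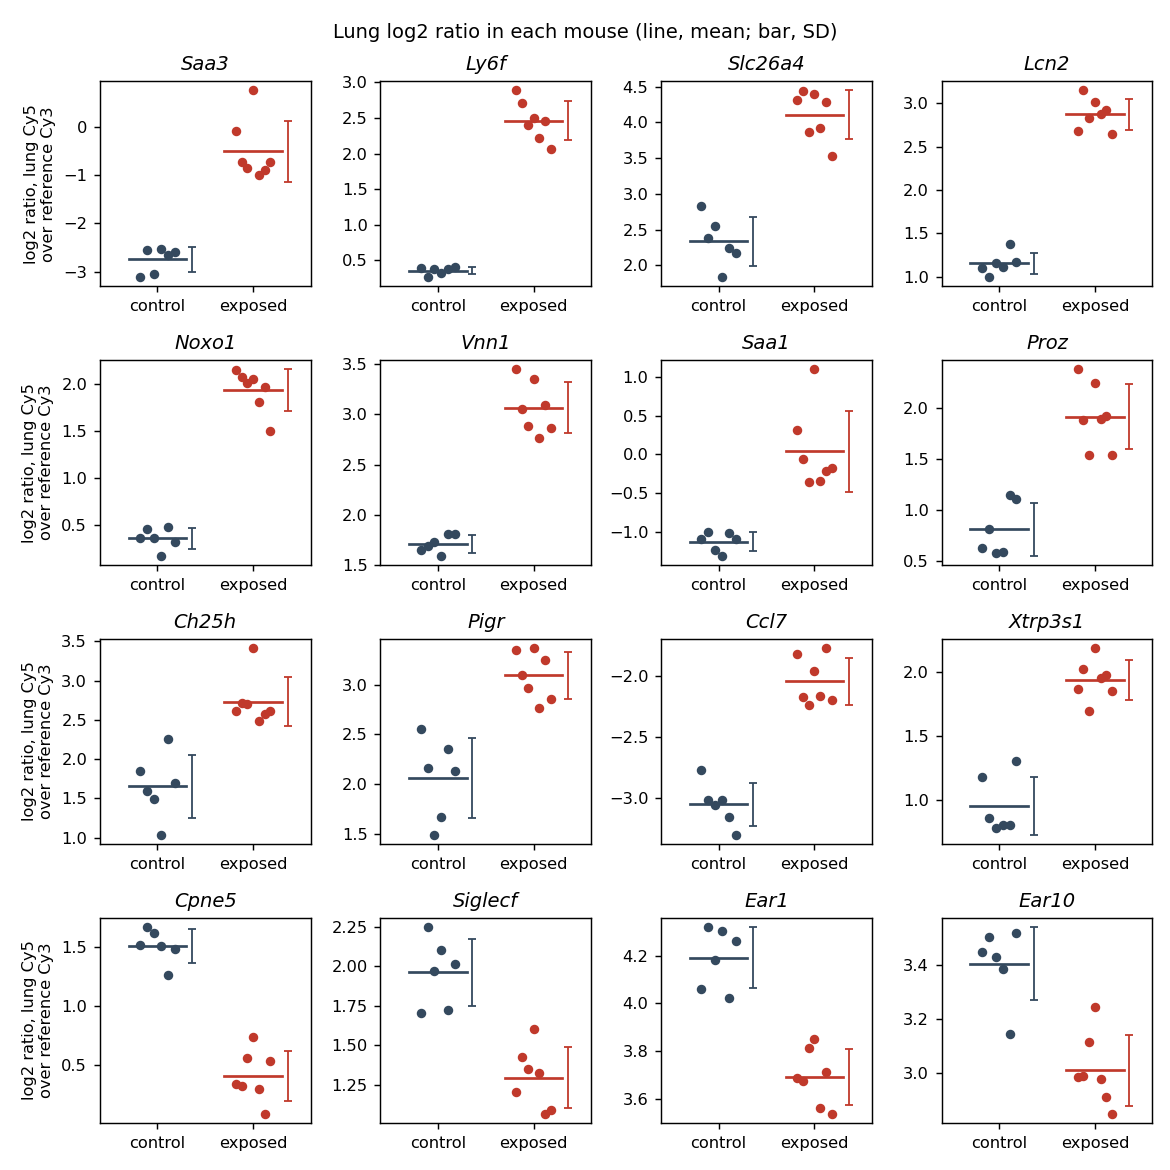
Log2 ratio (Cy5 lung over Cy3 reference, y axes with their own ranges) of the 12 genes with the largest called rise and the 4 with the largest called fall; each point is 1 mouse, the horizontal line is the group mean and the bar beside it the SD. The 7 exposed and 6 control mice did not overlap for 15 of the 16 genes, and for Ear10 control mouse 32 lay below exposed mouse 20.

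Acute-phase proteins, which rise in body fluids during inflammation, were among the most changed genes. Of 22 measured, 4 were called, all higher (4 of 22 against 0.148% of all probes), and 19 of them were higher at any p, as were 47.3% of all probes, with a median log2 difference of 0.36. Saa3, the serum amyloid A that macrophages and epithelia make outside the liver, had log2 ratios from -1.0 to 0.75 (median -0.74) in exposed and from -3.11 to -2.53 (median -2.62) in control lungs. The exposed values of Saa3 thus lay wholly above the control values, with mouse 20 highest and mouse 1 next. Its log2 difference was 2.24 (standard error 0.25, adjusted p = 0.00089), or 4.71-fold. Lcn2, lipocalin 2, which holds back iron from bacteria by binding their siderophores, ran from 2.64 to 3.15 (median 2.88) in exposed and from 1.0 to 1.37 (median 1.14) in control lungs. All 7 exposed mice were close together and far from the controls, and the log2 difference was 1.72 (standard error 0.08, adjusted p = 2e-07), or 3.3-fold. Saa1, the serum amyloid A of liver and plasma, ran from -0.36 to 1.1 (median -0.17) in exposed and from -1.31 to -1.01 (median -1.09) in control lungs, again with mouse 20 highest. Its log2 difference was 1.16 (standard error 0.20, adjusted p = 0.027), or 2.24-fold, while the second Saa1 probe differed by 0.29 (adjusted p = 0.52) and was not called. Saa1 kept its call in 5 of the 13 fits that left out 1 array (log2 difference 0.99 to 1.23, lost without exposed mouse 1 or 7 or control mouse 24, 26, 27, 29, 32 or 34). The Saa genes are close copies of each other, so the share of each in these signals is uncertain. Itih4 was 1.44-fold higher, with a log2 difference of 0.52 (standard error 0.071, adjusted p = 0.0052).

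The remaining acute-phase genes differed less. Serpina3n, a protease inhibitor, had a log2 difference of 0.45 (adjusted p = 0.13), Il1rn, the antagonist of interleukin 1, of 0.24 (adjusted p = 0.14), and Saa2 of 0.42 (adjusted p = 0.44). None of the 3 passed the test. Without exposed mice 1, 13 and 19, whose hepatocyte transcripts were high, Saa3 and Lcn2 remained called at log2 differences of 2.29 and 1.82, and Saa1 (1.21) and Itih4 (0.50) were not called, whereas Il1rn was, at 0.31. Saa1 was not called without control mice 27 and 29 (1.09) or with slide as a block (0.99) either. The median of the list was 0.25 without the 3 exposed mice. In the Cy3 reference channel, where the same RNA lay on every array, the Lcn2 probe was itself higher on arrays of exposed mice, by 0.52 (adjusted p = 5e-05) on the log2 scale. A higher reference signal lowers the ratio, but why the Cy3 signal differed was not tested, nor was its effect on the Lcn2 difference.

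Complement and clotting genes showed 1 call among them. Of 31 complement components and receptors measured, C3, the protein on which the complement pathways meet, was called, against 0.148% of all probes called higher. It was 1.45-fold higher at a log2 difference of 0.53 (standard error 0.077, adjusted p = 0.0078). Of the 31, 26 were higher at any p (median 0.15), against 47.3% of all probes. C3 was not called without exposed mice 1, 13 and 19 (0.52) or without control mice 27 and 29 (0.50). With slide as a block Cfb, complement factor B (0.35), and Serpind1, a thrombin inhibitor of the coagulation list (0.63), were called. The second C3 probe differed by 0.21 (adjusted p = 0.63). C1ra and C1s, the proteases of the first component, had log2 differences of 0.38 (adjusted p = 0.074) and 0.35 (adjusted p = 0.11) and did not pass. None of the 31 coagulation and fibrinolysis genes was called. Fgb and Fgg, fibrinogen chains made by hepatocytes, had log2 differences of 1.04 (adjusted p = 0.6) and 0.87 (adjusted p = 0.62), with SDs of 1.28 and 1.15 among exposed and 0.54 and 0.37 among control lungs. The median of the coagulation list was 0.11 with all mice and 0.0018 without exposed mice 1, 13 and 19, and the complement median went from 0.15 to 0.075. Proz, the name the array gives to a probe for the vitamin K-dependent protein Z, was 2.15-fold higher at this probe, at a log2 difference of 1.11 (standard error 0.15, adjusted p = 0.0044) that was 0.99 and not called without control mice 27 and 29, whereas the other 2 probes of the name differed by 0.22 and 0.13 and were not called.

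The promoters of the acute-phase genes are shown because C/EBP factors are known regulators of this gene group. The letters TTGCNNAA were searched on both strands in the RefSeq promoter windows of build GRCm38.p6, from 250 bases before to 50 bases after each gene's start. Of the 17 acute-phase genes with a promoter in the table, 10 held a match (58.8%), against 12.2% of all 27025 genes; this motif was set against this list after the values of the list were seen. The stretches around the matches of the 3 genes with the largest differences follow, each read on the gene's own strand, the minus strand here, with the match, on either strand, in capitals, at chr7:46715753-46715790, chr7:46743140-46743177 and chr2:32387933-32387970.
Saa3: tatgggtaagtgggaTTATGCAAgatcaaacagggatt
Saa1: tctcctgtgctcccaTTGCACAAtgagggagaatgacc
Lcn2: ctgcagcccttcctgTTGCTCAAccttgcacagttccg
The matches are letters in a window and no binding was measured here.

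Genes of mucosal defence were the second group with several large rises. Of 26 measured, 5 were called (5 of 26 against 0.148% of all probes), all higher, namely Slc26a4, Lcn2, Vnn1, Pigr and Vnn3. Slc26a4, which encodes the anion exchanger pendrin of airway epithelium, had log2 ratios from 3.53 to 4.44 (median 4.28) in exposed and from 1.84 to 2.83 (median 2.31) in control lungs. No exposed lung overlapped the controls, and the log2 difference was 1.77 (standard error 0.17, adjusted p = 0.00024), or 3.42-fold. Pigr, the receptor that carries polymeric immunoglobulins across the epithelium, ran from 2.77 to 3.37 (median 3.1) in exposed and from 1.49 to 2.56 (median 2.15) in control lungs, with control mouse 24 nearest to the exposed mice. The Pigr log2 difference was 1.03 (standard error 0.16, adjusted p = 0.016), or 2.05-fold, and it was -0.38 in the scanner software's own log ratios. Vnn1 and Vnn3 encode vanins, which free pantothenate and cysteamine from pantetheine. Vnn1 ran from 2.77 to 3.45 (median 3.05) in exposed and from 1.59 to 1.81 (median 1.71) in control lungs, and its log2 difference was 1.35 (standard error 0.10, adjusted p = 2e-05), or 2.56-fold. Vnn3 was 1.85-fold higher, at a log2 difference of 0.88 (standard error 0.10, adjusted p = 0.0011).

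The other mucosal genes did not pass the test. Ltf, lactoferrin, had a log2 difference of 0.73 (adjusted p = 0.7), Tff2, a trefoil peptide, of 0.64 (adjusted p = 0.67), Retnla of 0.52 (adjusted p = 0.48) and the mucin Muc4 of 0.35 (adjusted p = 0.43). The list mean was lowest in control mice 27 and 29 (1.74 and 1.71), the mice with the lowest ciliated cell means. The median log2 difference of the list was 0.35 with all mice and 0.0081 without those 2, as the median of the ciliated cell list was 0.17 and 0.001. All 5 calls of the list remained without them. With exposed mice 1, 13 and 19 left out 4 remained, and Pigr was not called, at 0.99. Pigr, Slc26a4 and Itih4 also had higher Cy3 reference signals on exposed arrays, by 0.32 (adjusted p = 0.16), 0.58 (adjusted p = 0.079) and 0.46 (adjusted p = 0.35).

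CC chemokines were the ligand family with the most calls. Of 20 CC ligands measured, 5 were called at the brightest probe of each gene, all higher (5 of 20 against 0.148% of all probes). At any p 14 were higher, against 47.3% of all probes, and the median log2 difference was 0.29. Ccl2, Ccl7 and Ccl12 attract monocytes through the receptor Ccr2. Ccl2 had log2 ratios from -2.96 to -2.25 (median -2.77) in exposed and from -3.72 to -3.48 (median -3.63) in control lungs, with exposed mouse 13 highest. Its log2 difference was 0.89 (standard error 0.091, adjusted p = 0.00046), or 1.85-fold. Ccl7 had 2 probes, and both were called. At the first of them Ccl7 ran from -2.24 to -1.77 (median -2.17) in exposed and from -3.3 to -2.77 (median -3.04) in control lungs, with a log2 difference of 1.01 (standard error 0.094, adjusted p = 0.00021), and at the second the difference was 1.06 (adjusted p = 0.00052). The 2 probes thus gave 2.01-fold and 2.08-fold. Ccl12 was 1.55-fold higher, at a log2 difference of 0.64 (standard error 0.10, adjusted p = 0.018).

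Ccl9, a Ccr1 ligand of myeloid cells, ran from 0.11 to 0.66 (median 0.48) in exposed and from -0.78 to -0.39 (median -0.54) in control lungs. Both groups were tight and lay apart, and the log2 difference was 0.98 (standard error 0.085, adjusted p = 8.2e-05), or 1.98-fold. Ccl17, made by dendritic cells and macrophages for lymphocytes with Ccr4, ran from 2.16 to 3.02 (median 2.62) in exposed and from 1.16 to 2.14 (median 1.82) in control lungs, with mouse 20 highest. The log2 difference of Ccl17 was 0.88 (standard error 0.15, adjusted p = 0.035), or 1.84-fold. It kept its call in 2 of the 13 fits that left out 1 array (log2 difference 0.77 to 0.97, lost without exposed mouse 1, 7, 20, 23, 13 or 19 or control mouse 26, 27, 29, 32 or 34). Ccl19, which guides cells with Ccr7 to lymphoid tissue, was called at 1 probe, 1.38-fold higher at 0.47 (adjusted p = 0.039), and not at its brighter probe (log2 difference 0.33, adjusted p = 0.33). Ccl8 had a log2 difference of 0.76 (adjusted p = 0.3), Ccl6 of 0.39 (adjusted p = 0.24), and Ccl3 and Ccl20 of 0.35 (adjusted p = 0.33) and 0.33 (adjusted p = 0.34). These 4 did not pass the test. Without exposed mice 1, 13 and 19, Ccl2, Ccl7 and Ccl9 remained called and Ccl12 (0.71), Ccl17 (0.86) and Ccl19 (0.45) did not. The same 3 were not called without control mice 27 and 29 (0.69, 0.69 and 0.50), where Ccl3 was (0.47), and Ccl19 was not called with slide as a block (0.44).

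Among 17 CXC, C and CX3C ligands, Cxcl1, which attracts neutrophils through Cxcr2, was the only one called, against 0.148% of all probes called higher. It had log2 ratios from -3.49 to -2.85 (median -3.11) in exposed and from -4.32 to -3.66 (median -4.03) in control lungs, a log2 difference of 0.83 (standard error 0.13, adjusted p = 0.019) and a 1.78-fold rise. Cxcl1 kept its call in 8 of the 13 fits that left out 1 array (log2 difference 0.77 to 0.90, lost without exposed mouse 1 or 20 or control mouse 24, 26 or 32). Without exposed mice 1, 13 and 19 it was not called, at 0.94. Cxcl5, another Cxcr2 ligand, had a log2 difference of 2.13 (standard error 0.50, adjusted p = 0.19), and was not called. Its values were 0.85, 0.037, -0.43, -1.43, -2.72, -1.21 and -2.57 in exposed mice 1, 7, 12, 20, 23, 13 and 19 and -3.02, -2.96, -2.94, -2.92, -3.52 and -3.85 in control mice 24, 26, 27, 29, 32 and 34. Every exposed lung lay above every control lung, but the exposed lungs spread over a wide range, with mouse 1 highest and mouse 23 lowest. The exact 2-sided permutation test over the 1716 divisions of the 13 mice gave p = 0.0041, against a smallest possible p of 0.00058. With slide as a block Cxcl5 was called, at a log2 difference of 2.59. Exposed mice 20 and 23, whose slide held no control, do not enter that difference. Ppbp, a platelet chemokine, had -0.59 (adjusted p = 0.32), Cxcl16 0.31 (adjusted p = 0.33) and Cxcl12 0.20 (adjusted p = 0.37), none of them called. The median log2 difference of this list was 0.09. No chemokine receptor of 21 was called, and Ccr2 had -0.16 (adjusted p = 0.7).

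The promoters of 2 called chemokines are shown with their matches to an NF-kB site, since NF-kB factors are known to drive many chemokine genes. The site was searched as GGG, 3 free bases and TTCC on both strands of the same RefSeq windows. It was held by 3 of 14 CC ligands (21.4%) and by 4 of 13 of the other ligands (30.8%) with a promoter in the table, against 6.31% of all genes. Cxcl1 held 3 matches, 2 of which overlap, at chr5:90891141-90891199 on the plus strand, and Ccl9 held 1 at chr11:83578647-83578686 on the minus strand. The matches are in capitals.
Cxcl1: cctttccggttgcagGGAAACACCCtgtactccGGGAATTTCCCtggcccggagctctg
Ccl9: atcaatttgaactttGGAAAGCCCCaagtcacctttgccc
The promoters of Ccl2, Ccl7, Ccl12 and Ccl17 are not in the table used.

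Of 25 cytokines, Csf2, the granulocyte-macrophage colony-stimulating factor that alveolar macrophages need, was called, against 0.148% of all probes called higher. Csf2 ran from 1.84 to 2.4 (median 2.2) in exposed and from 0.94 to 1.53 (median 1.36) in control lungs, and its log2 difference was 0.86 (standard error 0.095, adjusted p = 0.00089), or 1.82-fold. The scanner software had marked at least 1 of the 10 spots of this probe as an outlier on 4 arrays, and without marked spots the log2 difference was 0.88. Tnf, Il1a and Il33 were not called. Tnf had a log2 difference of 0.22 (adjusted p = 0.35), Il1a of 0.066 (adjusted p = 0.69) and Il33, an epithelial alarmin, of 0.36 (adjusted p = 0.21).

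The NADPH oxidase family held 2 calls among 16 genes, both higher, against 0.148% of all probes. Noxo1 and Noxa1 encode the organizer and the activator subunit of the epithelial oxidase Nox1. Noxo1 had log2 ratios from 1.49 to 2.15 (median 2.01) in exposed and from 0.17 to 0.47 (median 0.36) in control lungs. The groups lay far apart, and the log2 difference was 1.58 (standard error 0.092, adjusted p = 1.3e-06), or 2.99-fold. Noxo1 was 1 of the 5 probes called when the arrays were centred on their medians in place of the intensity-dependent normalization, beside Ly6f, Lcn2, Cxcl1 and Lemd1. Noxa1 was 1.58-fold higher, at a log2 difference of 0.66 (standard error 0.094, adjusted p = 0.0073), and was not called without exposed mice 1, 13 and 19 (0.58) or without control mice 27 and 29 (0.64). Nox1 itself had a log2 difference of 0.054 (adjusted p = 0.68), and the phagocyte oxidase genes Cyba and Cybb had 0.31 (adjusted p = 0.27) and -0.27 (adjusted p = 0.52). Cyba was called with slide as a block, at 0.30. The median over the 16 genes was 0.0052. Of 30 antioxidant and Nrf2 target genes none was called, with Nqo1 at -0.23 (adjusted p = 0.75), Hmox1 at 0.15 (adjusted p = 0.74) and Gsta1 at -0.53 (adjusted p = 0.37). Metallothioneins and zinc transporters had no call either, with Mt1 at 0.026 (adjusted p = 0.95).

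Genes of alveolar macrophages went in both directions. Of 18 measured, 2 were called higher and 3 lower, against 0.148% and 0.0243% of all probes, and the median log2 difference of the list was 0.035. Marco, a scavenger receptor that binds unopsonized particles, ran from 5.13 to 5.47 (median 5.27) in exposed and from 4.46 to 5.06 (median 4.7) in control lungs. Its log2 difference was 0.56 (standard error 0.092, adjusted p = 0.022), or 1.48-fold, and it kept its call in 6 of the 13 fits that left out 1 array (log2 difference 0.51 to 0.63, lost without exposed mouse 7, 12, 20 or 23 or control mouse 24, 26 or 29). Ctsk, a lysosomal cysteine protease that breaks down collagen, ran from 2.02 to 2.45 (median 2.13) in exposed and from 0.83 to 1.64 (median 1.22) in control lungs, with a log2 difference of 0.94 (standard error 0.12, adjusted p = 0.0024), or 1.91-fold. Siglecf, the sialic acid-binding lectin by which alveolar macrophages and eosinophils are told from other leukocytes, ran from 1.07 to 1.6 (median 1.33) in exposed and from 1.7 to 2.25 (median 1.99) in control lungs. Every exposed lung was lower than every control lung, and the log2 difference was -0.67 (standard error 0.10, adjusted p = 0.013), or 1.59-fold lower. Ear1 and Ear10, eosinophil-associated ribonucleases that alveolar macrophages also express, were lower by 1.42-fold and 1.32-fold, at -0.50 (standard error 0.064, adjusted p = 0.0032) and -0.40 (standard error 0.07, adjusted p = 0.039). Ear10 kept its call in 3 of the 13 fits that left out 1 array (log2 difference -0.45 to -0.37, lost without exposed mouse 1, 7, 23, 13 or 19 or control mouse 24, 26, 27, 29 or 34). The Ear genes are close copies, so that the gene behind each probe is uncertain.

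**Figure D3:**
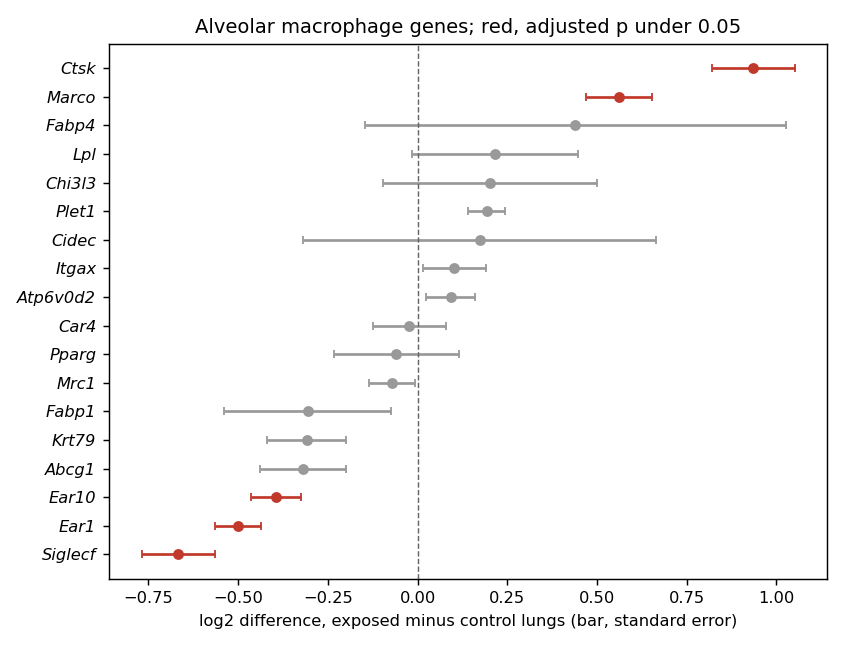
Log2 difference (exposed minus control lungs, x axis) with its standard error for the 18 alveolar macrophage genes measured, ordered by size; red points have an adjusted p under 0.05. Ctsk (0.94) and Marco (0.56) were higher, Siglecf (-0.67), Ear1 (-0.50) and Ear10 (-0.40) were lower, and the other 13 genes were not called.

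The other macrophage genes of this list, among them Itgax at 0.10 (adjusted p = 0.76), Mrc1 at -0.071 (adjusted p = 0.78) and Car4 at -0.023, did not pass the test. Eosinophil genes in the narrow sense showed no call, with Epx, eosinophil peroxidase, at -0.021 (adjusted p = 0.9) and Prg2, major basic protein, at 0.068 (adjusted p = 0.92). Of the 16 mast cell, basophil and eosinophil genes measured, 8 were well above background in most exposed lungs or a large part of the control lungs. Differences of dim probes are understated. Ear1 remained called without control mice 27 and 29, whereas Siglecf and Ear10 did not, and without exposed mice 1, 13 and 19 the log2 differences of Siglecf, Ear1 and Ear10 were -0.54, -0.47 and -0.32 with none of them called, while Fabp1, a fatty acid-binding protein of the same list, was called lower, at -0.61 against -0.31 with all mice. Siglecf and Ear10 were -0.63 and -0.39 without control mice 27 and 29. Marco was not called without the 3 exposed mice (0.66), without the 2 control mice (0.50) or with slide as a block (0.54), and Ctsk kept its call in all 3 fits.

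Some receptor and lysosomal genes of macrophages rose. Trem2, a lipid-sensing receptor that signals through the adaptor DAP12 (Tyrobp), ran from -1.3 to -0.87 (median -1.06) in exposed and from -2.0 to -1.79 (median -1.91) in control lungs, with a log2 difference of 0.83 (standard error 0.07, adjusted p = 8.2e-05), or 1.77-fold. Its second probe differed by 0.49 (adjusted p = 0.053). Clec5a, a lectin that uses the same adaptor, was 1.63-fold higher at 1 probe (log2 difference 0.70, standard error 0.08, adjusted p = 0.0011) and differed by 0.13 and 0.013 at the other 2. The inhibitory receptor Lilrb4 was 1.34-fold higher (log2 difference 0.42, standard error 0.065, adjusted p = 0.013). These were the 3 calls among 28 myeloid receptors, against 0.148% of all probes, and Lilrb4 was not called without exposed mice 1, 13 and 19 (0.39). The list's median log2 difference was -0.034, and the adaptor Tyrobp had -0.062. Of 33 lysosome and phagocyte genes 3 were called, against the same 0.148%, Ctsk, Marco and Gpnmb, a glycoprotein of lysosome-rich macrophages, which was 1.38-fold higher at 0.46 (standard error 0.052, adjusted p = 0.00099). A second Gpnmb probe differed by -0.048. Msr1, another scavenger receptor, had 0.47 (adjusted p = 0.055) and Cd68 0.35 (adjusted p = 0.12), short of the threshold. Msr1 was called with slide as a block, at 0.52, and Ctsc, a lysosomal protease, without control mice 27 and 29, at 0.35.

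Ms4a7, a membrane protein of monocyte-derived and interstitial macrophages, was called at both of its probes. It ran from 0.34 to 0.81 (median 0.52) in exposed and from -0.30 to 0.078 (median -0.095) in control lungs at the first, with log2 differences of 0.66 (standard error 0.076, adjusted p = 0.0012) and 0.64 (standard error 0.081, adjusted p = 0.0032). It was the only call among 22 genes of monocytes and interstitial macrophages, against 0.148% of all probes called higher. Of the 22, 18 were higher at any p (median 0.071), against 47.3% of all probes, with Csf1r at 0.06 (adjusted p = 0.78) and C1qb at 0.38 (adjusted p = 0.32). Cd14, the co-receptor for bacterial lipopolysaccharide, was 1.43-fold higher (log2 difference 0.52, standard error 0.093, adjusted p = 0.043), overlapped between the groups, and kept its call in 2 of the 13 fits that left out 1 array (log2 difference 0.47 to 0.57, lost without exposed mouse 1, 7, 12, 20, 23 or 13 or control mouse 24, 26, 27, 29 or 34). It was not called without exposed mice 1, 13 and 19 (0.52), without control mice 27 and 29 (0.40) or with slide as a block (0.52). None of the Toll-like receptors measured was called. The lysosomal protease Lgmn was 1.2-fold higher (log2 difference 0.27, adjusted p = 0.041), and was not called in the same 3 fits (0.25, 0.24 and 0.25).

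Leukocyte marker lists gave little beyond this. Among 17 dendritic cell genes, 2 were called, both higher, against 0.148% of all probes. They were Ccl17 and Itgae, the integrin chain of lung dendritic cells and mucosal T cells. Itgae had a log2 difference of 0.62 (standard error 0.096, adjusted p = 0.014), and of 0.29 (adjusted p = 0.33) at another probe, not called. Of the 17, 14 were higher at any p, against 47.3% of all probes. Neither Ccl17 nor Itgae was called without exposed mice 1, 13 and 19 or without control mice 27 and 29. Itgae was 0.66 and 0.61 in these fits. Cd83, found on mature dendritic cells, was 1.41-fold higher (log2 difference 0.50, standard error 0.062, adjusted p = 0.0026), and was not called without exposed mice 1, 13 and 19 (0.47). No neutrophil gene of 23 was called, and 19 of them were lower (list median -0.11), whereas 47.3% of all probes were higher. S100a8 was at -0.88 (adjusted p = 0.6), Cxcr2 at -0.28 (adjusted p = 0.61) and Fpr1 at -0.42 (adjusted p = 0.21). The other 4 neutrophil genes were higher, by up to 0.73. An unadjusted p under 0.05 from limma was reached by 1 of the higher and 2 of the lower neutrophil genes. The 19 B cell, 24 T cell and 17 natural killer cell genes held no call, with medians of 0.063, 0.029 and -0.051, and Cd3e and Ncr1 at -0.071 and 0.017. Red blood cell and fibroblast or smooth muscle genes held none either.

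The sterol pathway showed small differences, nearly all in the same direction. Of 25 genes of sterol synthesis and uptake, 3 were called, all higher, against 0.148% of all probes, 23 were higher at any p, against 47.3%, 16 had an unadjusted p under 0.05, against 3473 of the 41174 probes, and the median log2 difference was 0.25. Fdps, farnesyl diphosphate synthase, was 1.32-fold higher (log2 difference 0.40, standard error 0.059, adjusted p = 0.0089), and Cyp51, which demethylates lanosterol, 1.24-fold (log2 difference 0.31, standard error 0.051, adjusted p = 0.022). Another Fdps probe differed by 0.26 (adjusted p = 0.54) and was not called. Other Cyp51 probes differed by 0.27 (adjusted p = 0.38) and 0.14 (adjusted p = 0.6) and were not called either. Cyp51 kept its call in 5 of the 13 fits that left out 1 array (log2 difference 0.29 to 0.34, lost without exposed mouse 20, 23, 13 or 19 or control mouse 24, 27, 32 or 34). Hmgcs1, Msmo1 and Idi1, all enzymes of the same pathway, had log2 differences of 0.31 (adjusted p = 0.062), 0.41 (adjusted p = 0.064) and 0.41 (adjusted p = 0.15), short of the threshold. Other Hmgcs1 probes differed by 0.18 (adjusted p = 0.465) and 0.054 (adjusted p = 0.82). The list mean ran from -0.38 to -0.15 in exposed and from -0.59 to -0.34 in control lungs, where control mouse 26 was the 1 that overlapped. The list median was 0.24 without exposed mice 1, 13 and 19 and 0.23 without control mice 27 and 29, and none of its genes was called in either case. With slide as a block Cyp51 was not called (0.28), whereas Msmo1 (0.43) and Srebf2, the gene of an SREBP factor (0.21), were among the genes of the list that were.

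Around this pathway, Ch25h, which makes 25-hydroxycholesterol, an oxysterol that holds sterol synthesis down, had log2 ratios from 2.48 to 3.41 (median 2.62) in exposed and from 1.04 to 2.25 (median 1.65) in control lungs, with exposed mouse 20 far above the others. Its log2 difference was 1.08 (standard error 0.18, adjusted p = 0.022), or 2.11-fold, and the call held in 9 of the 13 fits that left out 1 array (log2 difference 0.95 to 1.2, lost without exposed mouse 7 or control mouse 26, 27 or 34). Ch25h was not called without exposed mice 1, 13 and 19 (1.17), without control mice 27 and 29 (0.88) or with slide as a block (0.95). It was the only call among 16 genes of sterol efflux and oxysterols, against 0.148% of all probes called higher. In that list the transporters Abca1 and Abcg1 had -0.30 (adjusted p = 0.57) and -0.32 (adjusted p = 0.51). Of 15 fatty acid synthesis genes none was called. Their median was 0.22 with all mice and 0.053 without exposed mice 1, 13 and 19, with Fasn at 0.49 (adjusted p = 0.72).

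Promoters of the sterol genes are shown because NF-Y, the factor of the CCAAT box, acts together with the sterol-regulated SREBP factors. CCAATNN, with 2 free bases, was found on 1 strand or the other in 16 of the 17 sterol genes in the promoter table (94.1%), against 40.9% of all genes. The sterol regulatory element core TCACNCCAC was found in 1 of them (5.88%) against 1.44%, and the gene was Hmgcs1. The stretches that hold the CCAAT matches before the gene start, in capitals for either strand, lie at chr13:119690101-119690325 on the plus strand and at chr5:4104705-4104741 on the minus strand.
Hmgcs1: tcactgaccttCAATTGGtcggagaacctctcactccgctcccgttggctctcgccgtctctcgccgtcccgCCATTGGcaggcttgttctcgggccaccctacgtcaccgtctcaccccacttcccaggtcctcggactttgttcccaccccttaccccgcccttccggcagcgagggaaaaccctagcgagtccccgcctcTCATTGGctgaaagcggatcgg
Cyp51: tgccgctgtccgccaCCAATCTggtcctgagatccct
The promoter of Fdps is not in the table used.

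Among tissue remodelling genes, the protease Mmp12 and the inhibitor Timp1 were called higher, while collagens did not pass the test. Mmp12, macrophage elastase, was not well above background in any of the 6 control lungs and was so in all 7 exposed lungs. Its log2 difference was 0.63 (adjusted p = 0.0046). In the normalized Cy5 signal alone, which is another measure than the ratio tested, it was at least 1.6-fold higher. That bound was taken from the lowest signal well above background on each control array. Timp1, an inhibitor of metalloproteinases, ran from -2.0 to -1.21 (median -1.89) in exposed and from -2.87 to -2.37 (median -2.54) in control lungs. Its log2 difference was 0.76 (standard error 0.12, adjusted p = 0.012), or 1.7-fold. Its other 2 probes differed by 0.34 (adjusted p = 0.27) and 0.27 (adjusted p = 0.16) and were not called. Of 22 genes on the metalloproteinase list Mmp12 and Timp1 were the 2 called, against 0.148% of all probes. At any p 14 were higher, against 47.3% of all probes, and the list median was 0.024. Mmp2 had 0.38 (adjusted p = 0.087). Spp1, osteopontin, was 1.57-fold higher (log2 difference 0.65, standard error 0.12, adjusted p = 0.043), the only call among 28 matrix and fibrosis genes, against the same 0.148%. Col1a1 had a log2 difference of 0.039 (adjusted p = 0.94), Col3a1 of 0.16 (adjusted p = 0.71) and Fn1, fibronectin, of 0.20 (adjusted p = 0.6). Spp1 overlapped between the groups and kept its call in 2 of the 13 fits that left out 1 array (log2 difference 0.59 to 0.74, lost without exposed mouse 1, 7, 12, 23, 13 or 19 or control mouse 24, 26, 27, 29 or 34). Gdf15, a stress-responsive cytokine of the TGF-beta family, was 1.24-fold higher (log2 difference 0.31, standard error 0.052, adjusted p = 0.022). It was the only call among 20 p53 target genes, against the same 0.148%, and Cdkn1a had 0.17 (adjusted p = 0.76). Gdf15 kept its call in 5 of the 13 fits that left out 1 array (log2 difference 0.29 to 0.34, lost without exposed mouse 1, 7, 13 or 19 or control mouse 24, 26, 29 or 34). Timp1 (0.83 and 0.76), Spp1 (0.58 and 0.64) and Gdf15 (0.27 and 0.35) were not called without exposed mice 1, 13 and 19 or without control mice 27 and 29, whereas Mmp12 was in both.

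Several programmes held no call. None of 34 interferon-stimulated genes (-0.02 median log2 difference, Isg15 at -0.19), 35 cell division genes (0.052, Top2a at 0.061), 15 genes of MHC class II presentation (0.065, Cd74 at 0.065), 27 immediate early genes (-0.013, Fos at -0.29) and 18 clock genes (0.096, Dbp at 0.10) was called. Nor was any of 14 reference genes, whose median was -0.0029, with Hprt at -0.096 (adjusted p = 0.59). A difference that did not pass the test with 7 and 6 mice is not shown to be absent.

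**Figure D4:**
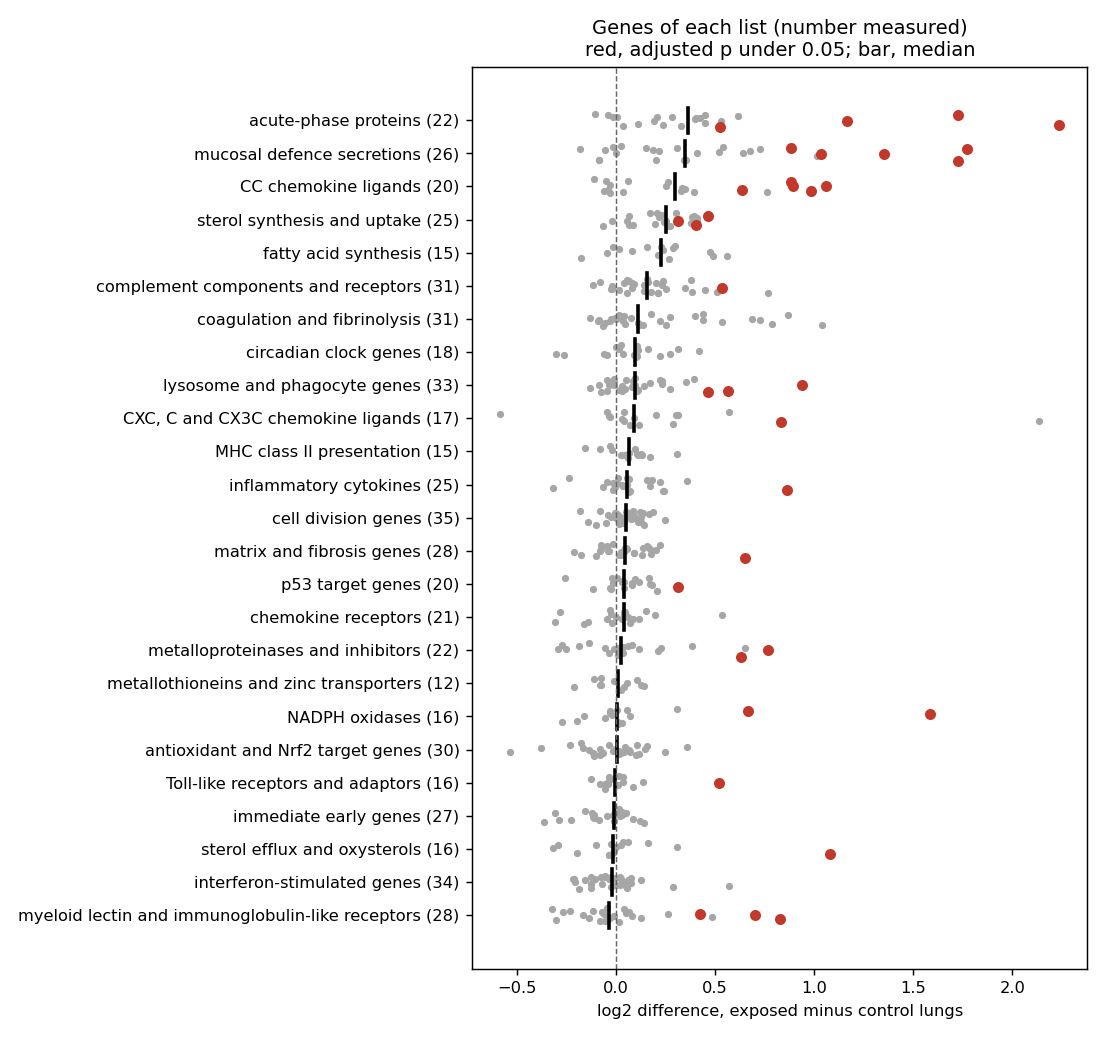
Log2 difference (exposed minus control lungs, x axis) of every measured gene of 25 gene lists, at its brightest probe; red points have an adjusted p under 0.05, black bars are list medians and the number of genes is in parentheses. Medians were highest for acute-phase proteins (0.36), mucosal defence secretions (0.35) and CC chemokine ligands (0.29), and every red point lies to the right of 0.

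Some of the largest changes belonged to no list. Ly6f, of the Ly6 family of membrane-anchored surface proteins, had log2 ratios from 2.06 to 2.89 (median 2.46) in exposed and from 0.27 to 0.41 (median 0.38) in control lungs. The controls lay within a narrow band and all exposed lungs far above it, with a log2 difference of 2.1 (standard error 0.11, adjusted p = 2.8e-07), or 4.3-fold. Ly6f was also higher in the Cy3 channel, by 0.39 (adjusted p = 0.00062). The related Ly6i was 1.35-fold higher (log2 difference 0.44, adjusted p = 0.014), and the family's close copies leave the gene behind each probe uncertain. Xtrp3s1, now called Slc6a20a, a transporter of proline and other imino acids, ran from 1.69 to 2.19 (median 1.95) in exposed and from 0.78 to 1.31 (median 0.83) in control lungs, with a log2 difference of 0.99 (standard error 0.098, adjusted p = 0.00032), or 1.98-fold. Lgi2 rose by 1.77-fold at 1 probe (log2 difference 0.83, standard error 0.11, adjusted p = 0.0046), and another Lgi2 probe differed by 0.52 (adjusted p = 0.074) and was not called. The gene listed as 1100001G20Rik, now Wfdc21, was 1.7-fold higher (log2 difference 0.77, adjusted p = 0.0035), and Asgr2, a subunit of the asialoglycoprotein receptor, 1.7-fold (log2 difference 0.76, adjusted p = 0.0062). Lemd1 was not well above background in any control lung. In the normalized Cy5 signal alone it was at least 1.48-fold higher in the exposed lungs, and its log2 ratio was called higher (adjusted p = 8.1e-06). Without exposed mice 1, 13 and 19 Lgi2 (0.80), Asgr2 (0.67) and Ly6i (0.40) were not called, and without control mice 27 and 29 Asgr2 (0.74) and Ly6i (0.40) were not.

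Further probes were called between 1.16-fold and 1.67-fold higher. Rgs16 and Rgs1, which switch off G protein signals such as those of chemokine receptors, had log2 differences of 0.71 (adjusted p = 0.0078) and 0.59 (adjusted p = 0.0078). Il4i1, an amino acid oxidase of myeloid cells, had 0.64 (adjusted p = 0.013), Steap4, a metalloreductase, 0.63 (adjusted p = 0.03), and Akp2, now Alpl, a tissue alkaline phosphatase, 0.59 (adjusted p = 0.0043). D17H6S56E-5 was called at both of its probes, at 0.68 (adjusted p = 0.00024) and 0.61 (adjusted p = 0.0062). The remaining probes called higher were those of 1300002K09Rik (now Stra6l), Zmynd15, Zranb3, Aldoc and AA733629 and 1 probe that carries no gene name. Other probes of Steap4, Aldoc, Zranb3 and 1300002K09Rik differed by 0.39, 0.15, 0.032 and 0.035 and were not called (adjusted p = 0.15, 0.47, 0.81 and 0.86). The calls of Steap4, Zranb3, Aldoc, AA733629 and the unnamed probe were lost with at least 1 array left out. Without exposed mice 1, 13 and 19 the first probe of D17H6S56E-5 was the only one of this paragraph still called, and without control mice 27 and 29 both of its probes, Akp2 and 1300002K09Rik were. With slide as a block, the calls of Zranb3, Aldoc, AA733629 and the unnamed probe ended. The genes of this paragraph were named after their values were seen.

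The probes called lower were few, and Cpne5 stood apart from the rest. Cpne5 encodes copine 5, a calcium-dependent phospholipid-binding protein. At its first probe the log2 ratios ran from 0.09 to 0.74 (median 0.34) in exposed and from 1.26 to 1.67 (median 1.51) in control lungs. All exposed lungs lay below all control lungs, and the log2 difference was -1.1 (standard error 0.094, adjusted p = 8.2e-05), or 2.14-fold lower. The second probe differed by -0.40 (standard error 0.052, adjusted p = 0.004) and was well above background in 4 of the 7 exposed lungs, and the third differed by -0.069 (adjusted p = 0.57). Beside Siglecf, Ear1 and Ear10, the probes called lower were those of Afp, alpha-fetoprotein (log2 difference -0.30, adjusted p = 0.031), of 9830134C10Rik (log2 difference -0.36, adjusted p = 0.017) and 2210011C24Rik (log2 difference -0.35, adjusted p = 0.027), and of 2 transcripts with no gene symbol. The first Cpne5 probe was called without exposed mice 1, 13 and 19 and without control mice 27 and 29, the second without the 2 control mice alone, and Afp, 9830134C10Rik, 2210011C24Rik and the 2 transcripts without a symbol in neither fit. With slide as a block, Afp (-0.30) and 1 of the 2 transcripts were not called. Afp was 0.16 on the log2 scale, in the opposite direction, after normexp background correction of the scanner intensities, and at least 1 of its 10 spots was marked as an outlier on 4 arrays.

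The exposed mice differed in the size of their rise. Over the 61 probes called higher, the mean rise above the control mean was 0.67 in mouse 12, the lowest, and 0.94 in mouse 20, the highest, while the control mice lay between -0.058 and 0.062. Exposed mice 13 and 20 gave the highest value of all 13 lungs for 19 and 18 of these probes, mouse 1 for 13 and mouse 19 for 1. The arrays lay on 4 slides, of which slide 4 held 2 exposed mice and no control. Within slides 1, 2 and 3 all 71 called probes had the direction of the whole comparison, with median differences of 0.67, 0.61 and 0.66 over the probes called higher and of -0.38, -0.31 and -0.47 over those called lower. These mice had also taken part in choosing the probes. Exposed mice lay at position 1 or 2 of a slide and control mice at position 3 or 4, so that slide position and exposure cannot be told apart. In the Cy3 reference channel, 4 probes (0.00971%) differed between arrays of exposed and control mice, and 2 of them, Ly6f and Lcn2, were among the 71.

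The liver of mostly the same mice was compared to show where the lung stood apart. In the liver no probe was called (0%), with a lowest adjusted p of 0.9998 from limma and 1583 probes at an unadjusted p under 0.05. The exposure difference in the lung minus that in the liver was tested over the 28 lung and liver arrays together, and 49 probes passed (0.119%), of which 42 were among the 71 lung probes. Ly6f, Noxo1, Slc26a4, Saa3 and Lcn2 were among them, with lung minus liver differences of 2.1, 1.58, 1.78, 2.26 and 1.79. Cpne5 and Siglecf passed as well, at -1.05 and -0.70. Some lung calls were not shown to differ from the liver. Vnn1 had a liver difference of 0.35 and a lung minus liver difference of 1.01 (adjusted p = 0.36), Saa1 had a lung minus liver difference of 1.21 (adjusted p = 0.12), and Cxcl1 of 1.15 (adjusted p = 0.45). The sterol genes Fdps and Cyp51 did not pass either.

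**Figure D5:**
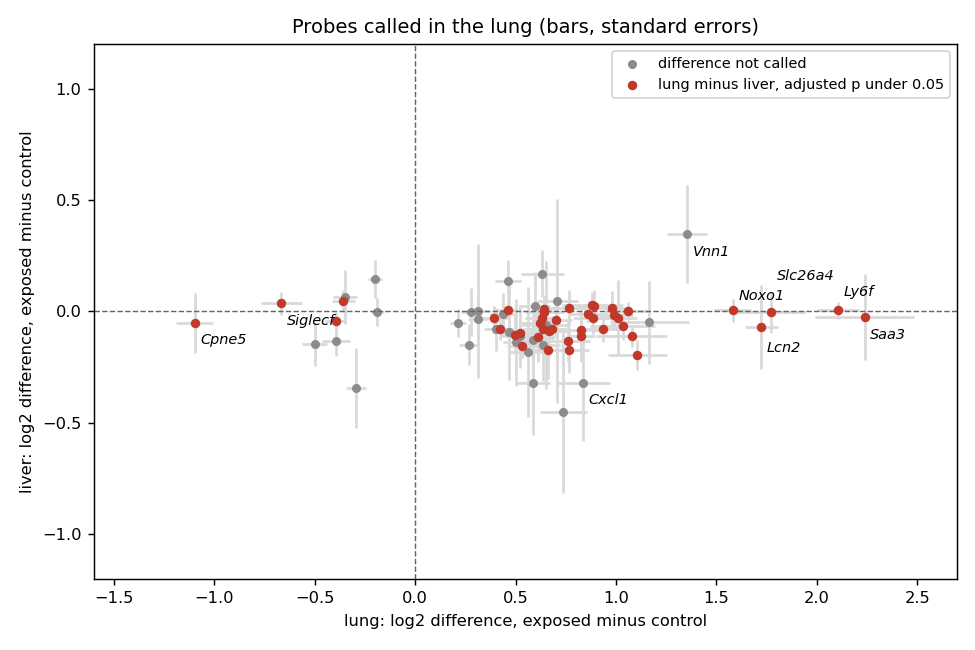
Log2 difference of exposed minus control mice in the lung (x axis) and in the liver (y axis) for the 71 probes called in the lung, with standard errors as bars; red points also passed the test of the lung minus the liver difference. The points spread along the x axis, from Cpne5 at -1.1 to Saa3 at 2.24, and none of them was called in the liver.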

How the data were processed

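Lung mRNA of 7 exposed and 6 control mice was measured on 2-color Agilent 4x44K arrays, 1 mouse per array. The authors deposited a table of LOWESS-normalized log2 ratios of Cy5 over Cy3, which was used here, and the scanner software's intensity values, which are not normalized. The scanner software's processed log10 ratios, deposited with them, served as an alternative. Against the deposited intensities the table matched the log2 ratio of median signals without background subtraction, less a smooth function of intensity, so its scale and direction are known. Symbols are those of the array files, and 22951 of 41174 probes had a current RefSeq symbol (GRCm38.p6). Spots of a probe were averaged, groups compared with lmFit and eBayes (limma 3.58.1, statmod 1.5.0, R 4.3.3) and p-values adjusted over all 41174 probes by the Benjamini-Hochberg method. The study's MAANOVA was replaced by limma, which was tested on simulated data. A few genes that were measured, and stay in the counts, are not reported here by name.

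Named were the 20 genes with the largest called rise and the 10 with the largest called fall (9 genes had one), and of each gene list the defining gene and up to 4 genes with the lowest p, at the probe with the highest mean Cy5 signal. Members and lists were chosen with earlier results of these data known. Alternatives were other background corrections and normalizations, a filter on dim probes, slide as a block, and arrays left out. Numbers pair lung and liver arrays of 12 mice by the labels' animal number, and their deviations from group means correlated at -0.04 to 0.23.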

Additional observations from a re-analysis of the deposited data

Results flagged for a closer look

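Single mice stood far from the rest of their group for a few of the 29 genes with the largest called changes, where a gap of this size arises by chance in about 1 of 20 groups; 5 of the 58 groups examined had one. Ch25h in exposed mouse 20 was 3.41, the highest of its group, with the next value at 2.72. Ccl2 in exposed mouse 13 was -2.25, the highest of its group, with the next value at -2.7. Vnn3 in control mouse 32 was 1.72, the highest of its group, with the next value at 1.29. Csf2 in control mouse 24 was 0.94, the lowest of its group, with the next value at 1.35. Ear10 in control mouse 32 was 3.14, the lowest of its group, with the next value at 3.39. The values are log2 ratios of Cy5 lung over Cy3 reference.

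The exposure difference in the lung minus that in the liver had an adjusted p under 0.05 from limma for 20 of these 29 genes. Among genes higher in exposed lungs it was, on the log2 scale, Saa3 2.26, Ly6f 2.1, Slc26a4 1.78, Lcn2 1.79, Noxo1 1.58, Proz 1.3, Ch25h 1.19, Pigr 1.1. It was Ccl7 1.04, Xtrp3s1 1.01, Ccl9 0.97, Ctsk 1.01, Ccl2 0.86, Vnn3 0.91, Ccl17 0.85, Csf2 0.87 and Lgi2 0.91 for the others that were higher, and Cpne5 -1.05, Siglecf -0.70 and 9830134C10Rik -0.41 for those that were lower. In the liver of these mice none of the genes was called.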

How the results depend on the processing

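The number of called lung probes depended most on background correction and on intensity-dependent normalization. From 71 (61 higher, 10 lower) it went to 15 (14 and 1) after normexp and loess, of which 14 were among the 71, to 22 (18 and 4) when normexp was fitted without outlier-marked spots, and to 5 (5 and 0) with median centring in place of loess. With slide as a random block it was 107 (85 and 22), which included all 71, and with slide as a fixed block 92, of which 22 were lower and 58 were among the 71. The fixed block leaves exposed mice 20 and 23, on slide 4 without a control, out of the exposure difference. With 1 array left out at a time the count was 54 to 71 probes, 46 to 61 higher and 4 to 13 lower; the fewest lower calls came without control mouse 29, and calls lower fell to 5 without control mouse 27 or exposed mouse 19 and to 6 without control mouse 26 or exposed mouse 13 or 23. In 2 settings chosen after the data were seen, 27 probes (25 and 2) were called without exposed mice 1, 13 and 19, of which 25 were among the 71, and 40 (37 and 3) without control mice 27 and 29, of which 35 were. Also added later was the authors' table without marked spots, which gave 69. All 71 kept their direction in these 3 and with each array left out, and fewer mice also lower the power to call.

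Of the 71 probes, 66 kept their direction after normexp, 65 without marked spots as well, 68 in the scanner software's own log ratios and 70 with median centring. Among named genes, Pigr was -0.38 and Ear10 0.0031 on the log2 scale in those log ratios, Afp was 0.16 and 0.18 after the 2 forms of normexp, and the probe NAP031415-1 was 0.011 with median centring; the cause was not tested. The test of lung minus liver called 49 probes, 51 with the replicate block (the mouse shared by a lung and a liver array), and 42 to 50 with each lung array left out, and the block changed no call count by over 1.5 times. The Cy3 channel gave 4 probes, and 6 with slide as a block. No paired fit was possible within the lung because exposed and control mice share no number. The authors' ratios carry no background subtraction, so that folds of dim probes are understated, and 13 arrays limit the precision.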
